A study of Homo sapiens with 6 samples.

Results

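The nuclear-encoded genes of the mitochondrial respiratory chain were examined in AGS, an established human gastric carcinoma cell line, after exposure to celecoxib. They were taken by symbol: every gene whose name begins with the prefixes of the complex I (NDUFA, NDUFB, NDUFC, NDUFS, NDUFV), complex III (UQCR), cytochrome c oxidase (COX4I, COX5, COX6, COX7, COX8) or ATP synthase (ATP5F, ATP5M, ATP5P) subunits, with CYC1 and the SDH genes of complex II. This gave 89 of the 18417 genes measured. They comprise 34 genes of complex I, 3 of complex II, 8 of complex III, 17 of complex IV, 17 of complex V and 7 complex I assembly factors named NDUFAF. The remaining 3 carry a member's prefix without being a subunit gene, and are the pseudogene symbols ATP5F1EP2 and UQCRBP1 and the non-coding transcript NDUFV1-DT. The rule uses symbols, not measured values, though the group was picked for study with earlier results of these data known. SDHB, NDUFA4, NDUFA4L2 and UQCRFS1 were not analysed here.

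RNA was measured on 6 arrays of 1 colour, 3 from control cells and 3 from cells kept for 24 h in 20 µM celecoxib, an inhibitor of cyclooxygenase-2, after 48 h of growth. The controls are labelled as given nothing. The drug came from a DMSO stock, and the sources used here do not give whether control wells had DMSO too. The labels call the arrays biological replicates and also mention pooling after the RNA check, so a p-value here measures the spread between these samples alone, and that spread may be technical.

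The respiratory chain carries electrons from NADH (complex I) and succinate (complex II) through ubiquinone to complex III, then by cytochrome c to complex IV, which reduces oxygen. Complexes I, III and IV pump protons out of the matrix, and complex V, the ATP synthase, makes ATP as they flow back. Most subunits are encoded in the nucleus and imported, the rest come from mitochondrial DNA, and assembly factors such as the NDUFAF proteins build the complexes without remaining in them. Transcription of the nuclear genes is known to involve the factors NRF1, GABPA (NRF2), YY1 and estrogen-related receptors, with the coactivator PPARGC1A (PGC-1α).

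Celecoxib replicate 1 stood apart from the other arrays in these genes. It gave the highest of the 6 values in 75 of 89 members (84.3%), against 27.3% of all genes, and the differences are therefore also given without it. Across all transcript clusters the arrays were alike, with medians of 6.75 to 6.82 and Pearson's r of 0.985 to 0.996 between pairs. Control means of the 6 epithelial markers ran from 7.96 (CDH1) to 12.62 (KRT8). Those of the 6 fibroblast markers ran from 2.80 (LUM) to 7.74 (COL1A1), of the 5 leukocyte markers measured from 3.95 (PTPRC) to 13.65 (LYZ), and of the 4 endothelial markers from 5.09 (PECAM1) to 6.01 (CDH5). In celecoxib 1 the medians of the marker lists lay near their control means. The epithelial median there was -0.02 from its control mean, the fibroblast median -0.05, the leukocyte median -0.06 and the endothelial median -0.08. Single markers moved further, as CDH1 read 7.69 there (control mean 7.96) and KRT18 11.85 (12.05). Of the 6 epithelial markers, 2 were above their control mean in that array.

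With celecoxib, 77 of the 89 members had a higher mean than in the controls (86.5%, against 47.9% of all genes) and 12 a lower one. The median difference was 0.15 on the log2 scale, or about 11%, where the median of all genes was -0.0068. Single members ranged from -0.24 (COX4I2) to 0.49 (COX7B), so none reached 0.5 in size. Of the members, 0 passed an adjusted p of 0.05 in limma, in a comparison that called 26 of 18417 genes (0.141%; 0.076% higher and 0.0652% lower). Unadjusted p-values under 0.05 were found in 13 higher members and 1 lower member, where the shares over all genes were 6.87% and 4.44%. The 3 celecoxib values lay above all 3 control values in 17 members and below them in 3, against 11.1% and 7.95% of all genes.

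Without celecoxib replicate 1, the median difference of the members was 0.05 and that of all genes -0.0053. Of the 89 members, 67 were higher (all genes, 48.1%), of which 66 were also higher with all arrays. Unadjusted p-values under 0.05 remained in 4 higher members (all genes, 5.01%) and 1 lower (4.54%), and limma called 0 at an adjusted p of 0.05 (all genes, 0.00543%). Celecoxib values lay above all controls in the same 17 members (all genes, 14.3%) and below them in 4 (13.6%). A member separated on all arrays stays so with fewer, so these counts could not fall. The median member lay 0.34 above its control mean in celecoxib 1, 0.06 above in celecoxib 2 and 0.04 above in celecoxib 3. Among the controls it was at -0.0015, -0.08 and 0.09, so control 3 sat above celecoxib 2 and 3. Control 3 exceeded both of them in 41 members (46.1%, against 38.5% of all genes).

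**Figure D1:**
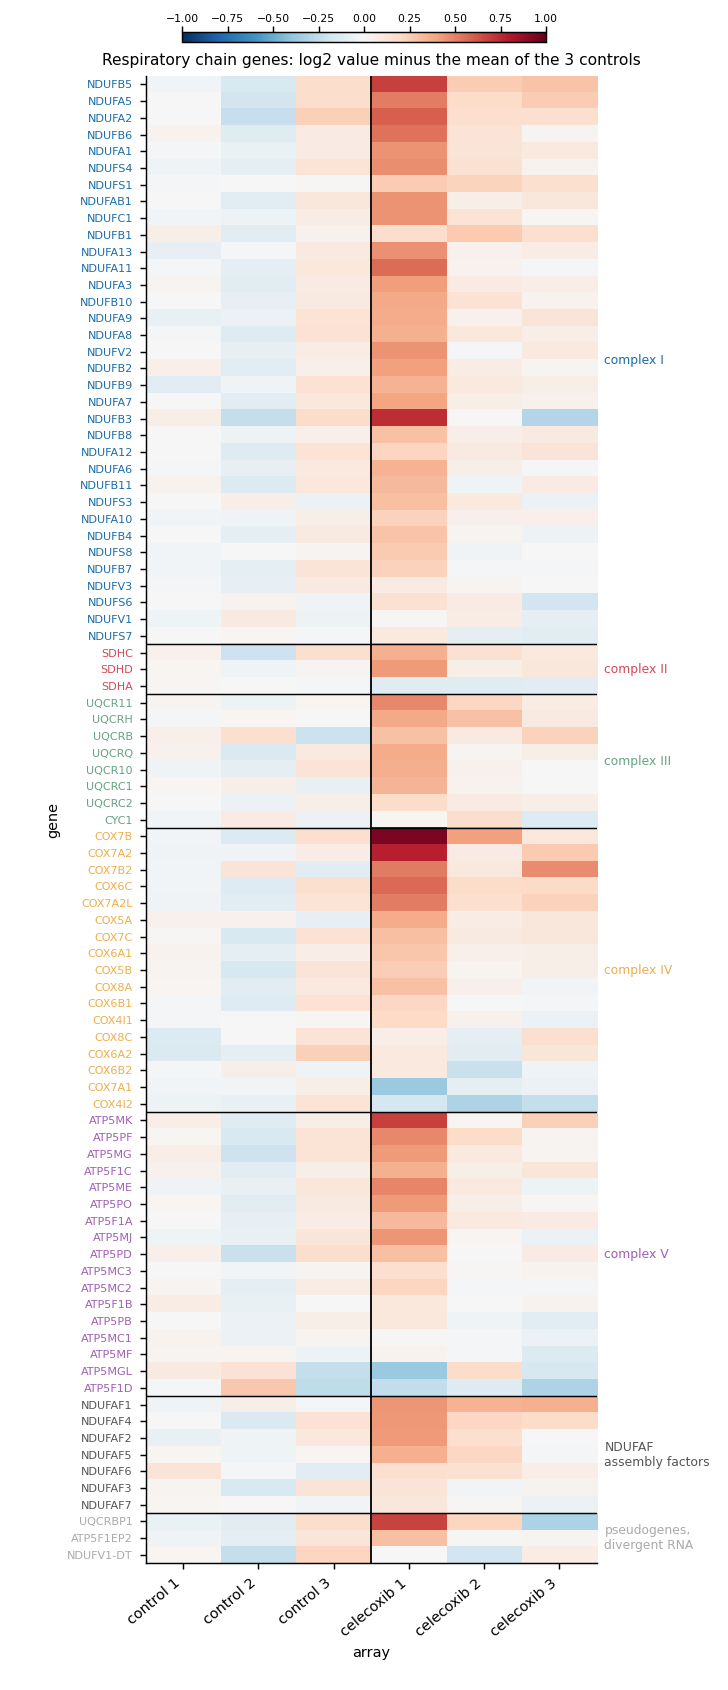
Log2 value minus the gene's control mean for each of the 89 members (one line of cells per gene, grouped by complex) in the 3 control and 3 celecoxib arrays; the colour scale runs from -1 to 1. The celecoxib 1 column is the darkest toward higher values, being the highest array in 75 members, and SDHA, COX4I2 and COX7A1 run the other way.

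The small nucleolar and Cajal body RNAs, short nuclear transcripts with no part in respiration, moved with the same arrays. Over 192 such genes the median level was 7.13, 7.00 and 7.09 in the controls and 7.55, 7.28 and 7.18 with celecoxib. Measured from each gene's control mean, the small RNA median was lowest in control 2 (-0.09) and highest in celecoxib 1 (0.32). On that measure the median member was also lowest in control 2 (-0.08) and highest in celecoxib 1 (0.34). By median level the members were lowest in control 1 (9.24), with control 2 at 9.26. With the median small RNA level as a covariate, the member median was -0.065 and 19 members were higher. The small RNA level was higher in every celecoxib array than in every control, so this fit cannot tell it apart from the treatment. The part of this RNA class in the members' difference was not tested. RNA came from whole cultures, so fewer cells carrying a transcript and less of it per cell cannot be told apart.

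Complex I, which oxidises NADH, was higher in 32 of 34 genes, with a median difference of 0.17 (0.07 without celecoxib 1). An unadjusted p under 0.05 was found for 4, all higher (6.87% of all genes), and the groups did not overlap in 6, all higher (11.1%). Without celecoxib 1 these counts were 3 (5.01%) and 6 higher (14.3%), with 1 gene not overlapping lower (13.6%). The 28 accessory subunits, which lie around the core subunits, were all higher, with a median of 0.18, and 24 of them without celecoxib 1 (median 0.08). The 6 redox core subunits measured, which carry the flavin and iron-sulfur clusters or lie beside them, had a median of 0.09, with 4 higher (0.0053, with 3 higher, without celecoxib 1). The difference between core and accessory genes was not tested.

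NDUFS1, the largest iron-sulfur subunit, read 9.74, 9.76 and 9.77 in the controls and 10.01, 9.98 and 9.92 with celecoxib. All celecoxib arrays lay above all controls, and the controls had an SD of 0.02 (n = 3). The difference was 0.21 ± 0.07 (SE, n = 3 per group, limma adjusted p = 0.329). It was 0.19 without celecoxib 1. NDUFV2, which binds an iron-sulfur cluster beside NDUFV1, read 10.08, 9.99 and 10.15 against 10.52, 10.05 and 10.17, so that only celecoxib 1 was clearly above the controls. Its difference of 0.18 became 0.04 without that array. NDUFV1, the flavin subunit that accepts electrons from NADH, read 9.13, 9.26 and 9.12 against 9.18, 9.24 and 9.08, and the groups lay over each other. The 95% interval of its difference ran from -0.18 to 0.17. NDUFS7 and NDUFS8, which pass electrons toward ubiquinone, differed by -0.04 ± 0.08 and 0.07 ± 0.09. Without celecoxib 1, NDUFS8 differed by -0.02, and NDUFS7 read 8.53 and 8.50, under its controls of 8.62, 8.64 and 8.60, a difference of -0.10.

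Among the accessory subunits, NDUFB5, in the membrane arm, read 9.52, 9.40 and 9.73 in the controls and 10.24, 9.80 and 9.84 with celecoxib. The groups did not overlap, though control 3 came within reach of celecoxib 2. The difference was 0.41 ± 0.13 (SE, n = 3 per group, limma adjusted p = 0.344). It was 0.27 without celecoxib 1. NDUFA5, of the matrix arm, read 7.81, 7.62 and 7.98 against 8.31, 7.99 and 8.06, and celecoxib 2 was barely above control 3. It differed by 0.32 ± 0.12, or 0.22 without celecoxib 1.

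A further pair of accessory subunits was chosen after their values were seen. NDUFB1 read 7.85, 7.68 and 7.83 against 7.97, 8.05 and 7.95, with celecoxib 2 highest, and its difference was 0.20 with all arrays and 0.21 without celecoxib 1. NDUFB3 read 7.67, 7.37 and 7.79 against 8.35, 7.61 and 7.32, highest in celecoxib 1 like most members. It was among the 12 members lowest in celecoxib 3 (13.5%, against 12.9% of all genes). Its difference of 0.15 ± 0.24 carried the widest error of any member and was -0.15 without celecoxib 1. The other 24 accessory genes differed by 0.01 (NDUFS6) to 0.31 (NDUFA2), and by -0.06 to 0.17 for the same genes without celecoxib 1.

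NDUFAF1, an assembly factor that acts on early membrane-arm intermediates of complex I, had the smallest p of all members. It read 6.78, 6.86 and 6.79 in the controls and 7.25, 7.15 and 7.17 with celecoxib, so every treated array was above every control and the groups stood well apart. The difference was 0.38 ± 0.07 (SE, n = 3 per group, limma adjusted p = 0.102), or 30.2%, and 0.35 without celecoxib 1. Its adjusted p ranged from 0.0206 to 0.528 over the alternatives and was under 0.05 in 2 of them, with array weights (0.0206) and among genes above the median signal (0.0454).

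All 7 assembly factors named NDUFAF were higher (median 0.18, and 0.10 without celecoxib 1, where 6 were higher). Without celecoxib 3 their median was 0.28. NDUFAF4, which acts with other factors on the membrane-arm side of assembly, read 10.52, 10.38 and 10.66 against 10.96, 10.73 and 10.71. The groups did not overlap, and it differed by 0.28 ± 0.10 (0.20 without celecoxib 1). NDUFAF5, which hydroxylates an arginine of NDUFS7, read 7.54, 7.48 and 7.54 against 7.88, 7.72 and 7.51, with celecoxib 3 among the controls (0.18 ± 0.10, and 0.10 without celecoxib 1). The other 4 (NDUFAF2, NDUFAF3, NDUFAF6 and NDUFAF7) differed by 0.02 to 0.20, and by -0.02 to 0.11 without celecoxib 1.

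Complex II, which also serves the citric acid cycle, held members that differed in opposite directions. SDHA, the flavoprotein that oxidises succinate, read 10.61, 10.60 and 10.58 in the controls and 10.47, 10.47 and 10.49 with celecoxib. Every celecoxib array lay below every control, and both groups had an SD of 0.01 (n = 3). The difference was -0.12 ± 0.06 (SE, limma adjusted p = 0.506) and -0.11 without celecoxib 1. The standard error here is larger than the arrays' own spread because limma draws each gene's variance toward the common value. Annotated copies of SDHA share its sequence, and these probes may read them too.

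SDHD and SDHC, the membrane anchors that bind ubiquinone, were both higher by 0.20. SDHD read 10.33, 10.27 and 10.34 against 10.74, 10.37 and 10.43, just above the controls in celecoxib 2 (0.20 ± 0.10, 0.09 without celecoxib 1). SDHC read 11.82, 11.57 and 11.94 against 12.13, 11.93 and 11.88, with celecoxib 2 and 3 inside the control range (0.20 ± 0.11, and 0.13 without celecoxib 1). A second transcript cluster of SDHC read 8.11, 8.18 and 8.13 against 8.15, 8.33 and 8.23, with celecoxib 2 highest, and differed by 0.10. That of SDHD differed by 0.20, with celecoxib 2 inside the control range. Cluster positions were not used, so whether the brighter clusters of SDHC and SDHD read copies elsewhere is not known.

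Promoter sequences of RefSeq (GRCh38.p14) were set beside these values for the motifs of the known regulators. A window reached from 250 bases before to 50 bases after the start of transcription, and 73 of the 89 members had one. A gene was counted if any of its windows held a motif. The motifs searched on both strands were GCGC, any base, then TGCGC for NRF1, CCGGAAG for GABPA, AAGATGGC for YY1 and TCAAGGTCA for estrogen-related receptors. Of the 73 members, 17 held the NRF1 letters (23.3%, against 10.1% of 14239 genes with a window), 21 the GABPA letters (28.8%, against 16.8%) and 11 the YY1 letters (15.1%, against 4.86%). At least 1 of the 4 was found in 41 members (56.2%, against 27.9%). The estrogen-related receptor letters were found in 1 member, SDHD (1.37%, against 0.302%). A match is a description of letters, not a binding site.

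SDHA and SDHD are shown because they belong to the same complex, differed in opposite directions and both hold NRF1 letters. The part shown runs from 170 bases before to 30 bases after the start. Motif letters are in capitals on either strand, and the last 30 bases of each sequence lie after the start. SDHA (chr5:218150-218349, plus strand) holds 4 copies of the NRF1 motif, all on the opposite strand. Their capitals therefore show the reverse complement of the letters searched. Each copy starts 49 bases after the one before, the first at -166 and the last at -19 from the start. SDHD (chr11:112086703-112086902, plus strand) holds in order an NRF1 motif at -110, a GABPA motif at -77 and the estrogen-related receptor motif at 12, with the last pair of motifs on the opposite strand.
SDHA: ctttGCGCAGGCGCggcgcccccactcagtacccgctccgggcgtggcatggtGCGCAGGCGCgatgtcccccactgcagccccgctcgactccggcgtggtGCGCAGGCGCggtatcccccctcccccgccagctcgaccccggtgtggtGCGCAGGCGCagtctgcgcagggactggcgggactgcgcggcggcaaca
SDHD: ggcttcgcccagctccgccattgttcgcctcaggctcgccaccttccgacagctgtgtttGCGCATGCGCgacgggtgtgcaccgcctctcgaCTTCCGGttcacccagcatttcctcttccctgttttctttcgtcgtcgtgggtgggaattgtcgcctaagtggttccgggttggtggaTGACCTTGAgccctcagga

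Sequences of the members with the smallest p in complexes I and III and among assembly factors follow for comparison. NDUFS1 (chr2:206159415-206159614, minus strand) and UQCRH (chr1:46303528-46303727, plus strand) each hold 1 GABPA motif, at -157 and -46, both on the opposite strand. In NDUFAF1 (chr15:41402467-41402666, minus strand) none of the 4 letter strings is present in the part shown or in the full window searched.
NDUFS1: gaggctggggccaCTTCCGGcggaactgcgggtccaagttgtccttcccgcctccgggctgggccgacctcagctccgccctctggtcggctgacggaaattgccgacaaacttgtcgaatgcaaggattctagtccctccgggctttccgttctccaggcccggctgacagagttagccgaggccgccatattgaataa
UQCRH: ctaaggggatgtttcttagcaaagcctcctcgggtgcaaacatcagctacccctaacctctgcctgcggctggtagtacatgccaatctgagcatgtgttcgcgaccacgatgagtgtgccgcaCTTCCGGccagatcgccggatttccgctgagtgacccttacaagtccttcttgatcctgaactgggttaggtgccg
NDUFAF1: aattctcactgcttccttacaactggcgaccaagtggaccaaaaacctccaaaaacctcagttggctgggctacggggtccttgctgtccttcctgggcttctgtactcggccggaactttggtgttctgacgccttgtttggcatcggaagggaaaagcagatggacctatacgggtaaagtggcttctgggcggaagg

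Complex III, which passes electrons from ubiquinol to cytochrome c, was higher in all 8 genes measured (median 0.14, and 0.06 with all 8 higher without celecoxib 1). UQCRH, the hinge subunit at the cytochrome c1 contact, read 6.97, 7.01 and 6.98 against 7.36, 7.28 and 7.07. The controls were tight, the groups did not overlap, and celecoxib 3 was nearest to the controls. The difference was 0.25 ± 0.09 (SE, n = 3 per group, limma adjusted p = 0.363). It was 0.19 without celecoxib 1. UQCR11, a small membrane subunit, read 8.19, 8.12 and 8.19 against 8.65, 8.38 and 8.24, also without overlap, and differed by 0.26 ± 0.11 (0.14 without celecoxib 1).

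UQCRB, which contributes to the ubiquinone site, read 7.22, 7.33 and 6.96 against 7.46, 7.26 and 7.40, with celecoxib 2 inside the control range (0.20 ± 0.11, and 0.16 without celecoxib 1). The core proteins UQCRC1 and UQCRC2, which face the matrix, differed by 0.13 ± 0.10 and 0.11 ± 0.07, and by 0.02 and 0.07 without celecoxib 1. UQCRC2 read 11.93, 11.87 and 11.98 against 12.11, 12.01 and 11.98, which separated the groups by a margin under its spread. CYC1, cytochrome c1 itself, read 9.74, 9.85 and 9.71 against 9.78, 9.94 and 9.64, and the groups lay over each other (0.02 ± 0.09, and 0.02 without celecoxib 1).

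**Figure D2:**
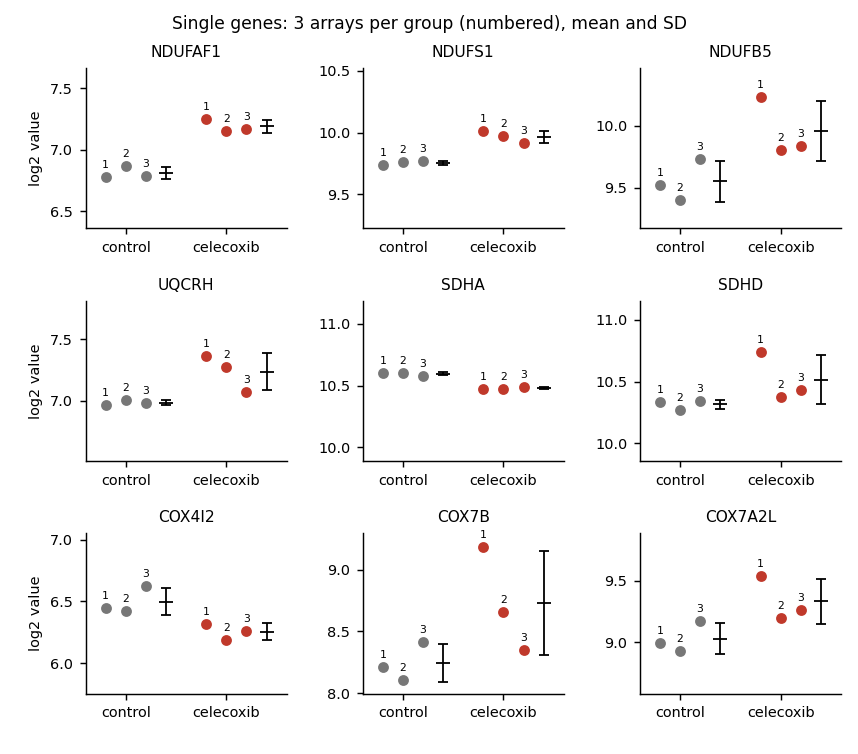
Log2 values of 9 members on each of the 3 control (grey) and 3 celecoxib (red) arrays, numbered by replicate, with the mean and SD of each group at the right; every panel spans a similar log2 range on its own axis. NDUFAF1, NDUFS1 and SDHA separate the groups on every array, while COX7B has celecoxib 3 at 8.35, under control 3 at 8.41.

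Complex IV, cytochrome c oxidase, was higher in 14 of 17 genes, with a median of 0.11 (0.04, with 12 higher, without celecoxib 1). It held the largest positive and the largest negative difference of the members. An unadjusted p under 0.05 was found for 5 higher genes and 1 lower with all arrays (6.87% and 4.44% of all genes), and for 0 higher and 1 lower without celecoxib 1 (5.01% and 4.54%). COX7B, a subunit needed for assembly of the enzyme, read 8.21, 8.11 and 8.41 against 9.18, 8.66 and 8.35. Celecoxib 1 was far above the rest and celecoxib 3 lay inside the control range, so the groups overlapped. The difference was 0.49 ± 0.19 (SE, n = 3 per group, limma adjusted p = 0.411). It was 0.26 without celecoxib 1.

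COX7A2, the isoform of most tissues, read 9.92, 9.92 and 10.03 against 10.74, 10.04 and 10.22, with celecoxib 2 at the edge of control 3 (0.37 ± 0.16, and 0.17 without celecoxib 1). COX7A2L, a related protein that joins complexes III and IV in supercomplexes, read 8.99, 8.93 and 9.17 against 9.54, 9.20 and 9.26. The groups just separated, and it differed by 0.30 ± 0.11, or 0.20 without celecoxib 1. COX7A1, the isoform of heart and skeletal muscle, read 5.85, 5.85 and 5.94 against 5.51, 5.78 and 5.82. All celecoxib arrays were below the controls, and the difference was -0.17 ± 0.09 (-0.08 without celecoxib 1).

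COX4I2, an isoform best known from lung, was the member with the largest negative difference. Its mean of 6.38 over the 6 arrays lay under the median of all clusters (6.785), as did that of COX7A1 (5.79). COX4I2 read 6.45, 6.42 and 6.62 in the controls and 6.32, 6.18 and 6.26 with celecoxib, and the groups did not overlap. The difference was -0.24 ± 0.08 (SE, n = 3 per group, limma adjusted p = 0.354). It was -0.28 without celecoxib 1. Its counterpart in most tissues, COX4I1, read 8.78, 8.80 and 8.81 against 9.00, 8.84 and 8.74, on both sides of the controls (0.06 ± 0.08, and -0.0075 without celecoxib 1). COX7B2, an isoform known from testis, read 4.21, 4.36 and 4.12 against 4.75, 4.34 and 4.71, near the low end of the array's scale. It differed by 0.37 ± 0.12 with overlap, or 0.29 without celecoxib 1.

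Of the remaining isoforms, COX6A1, COX6B1 and COX8A of most tissues differed by 0.13, 0.06 and 0.11, and by 0.05, -0.0053 and 0.01 without celecoxib 1. Their tissue-restricted counterparts COX6A2 (muscle), COX6B2 (testis) and COX8C (testis) differed by 0.04, -0.06 and 0.04, with errors of 0.09 to 0.12 for all 3, and by 0.0070, -0.13 and 0.03 without celecoxib 1. Over the 6 arrays, COX6B2 (mean 5.47), COX8C (5.36) and COX7B2 (4.41) lay under the 20th percentile of gene means (5.629). All 3 dim genes are counted among the 17 of complex IV. COX5A and COX5B, which sit beside the catalytic core, differed by 0.19 ± 0.10 and 0.11 ± 0.10, and by 0.09 and 0.04 without celecoxib 1. COX5A read 11.24, 11.23 and 11.11 against 11.57, 11.27 and 11.31, with no overlap but a narrow gap at celecoxib 2. COX6C, which was named with its values known, differed by 0.31 ± 0.12, and COX7C, the last of the 17, by 0.17. Without celecoxib 1 they differed by 0.19 and 0.10.

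**Figure D3:**
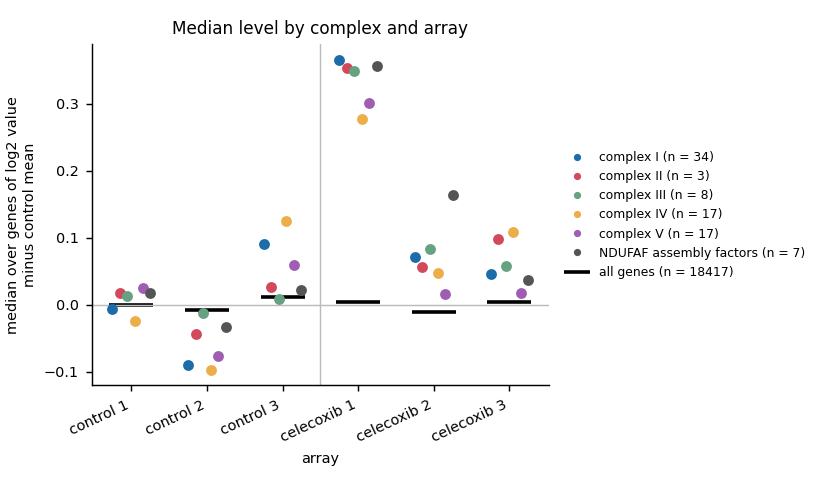
Median over genes of the log2 value minus the gene's control mean, for the 5 complexes, the NDUFAF assembly factors and all genes (black bars), in each array; points of one array are offset sideways for legibility. In celecoxib 1 every class sits between 0.28 and 0.37, while in celecoxib 2 and 3 the 5 complexes lie between 0.02 and 0.11.

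Complex V, the ATP synthase, was higher in 12 of 17 genes, with a median of 0.13 that was 0.02 without celecoxib 1 (11 higher). It had 0 genes at an unadjusted p under 0.05 (6.87% of all genes higher, 4.44% lower), and 1 gene, ATP5F1A, whose groups did not overlap (11.1% higher, 7.95% lower). Both counts were the same without celecoxib 1, where the separation of ATP5F1A could not be lost. The shares over all genes were then 5.01% higher and 4.54% lower at that p, and 14.3% and 13.6% not overlapping. By part of the enzyme, 3 of 4 catalytic head (F1) genes were higher (median 0.10), as were 3 of 4 peripheral stalk genes (0.15), 2 of 3 c ring genes (0.06) and 4 of 6 other membrane genes (0.15). Without celecoxib 1 the head median was 0.05, the stalk 0.04, the c ring -0.01 with 1 of 3 higher, and the other membrane genes 0.02.

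ATP5F1A, the α subunit, read 10.00, 9.91 and 10.07 against 10.32, 10.09 and 10.07, with celecoxib 3 level with control 3 to the decimals given. The difference was 0.17 ± 0.09 (SE, n = 3 per group, limma adjusted p = 0.504). It was 0.09 without celecoxib 1. ATP5F1B, the catalytic β subunit, read 12.62, 12.47 and 12.54 against 12.65, 12.54 and 12.58, within the spread of the arrays (0.04 ± 0.07, and 0.01 without celecoxib 1). ATP5F1C, the rotating γ subunit, differed by 0.18 ± 0.10, or 0.09 without celecoxib 1. ATP5F1D, the δ subunit at the foot of the rotor, read 9.19, 9.48 and 8.96 against 8.97, 9.08 and 8.90. Its controls were widely spread and overlapped the celecoxib arrays, and it differed by -0.23 ± 0.13 (-0.22 without celecoxib 1). ATP5MK (DAPIT), a small membrane subunit of the dimer interface, read 11.46, 11.28 and 11.46 against 12.09, 11.42 and 11.64. Celecoxib 2 fell inside the control range, and the difference of 0.31 ± 0.16 became 0.13 without celecoxib 1.

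**Figure D4:**
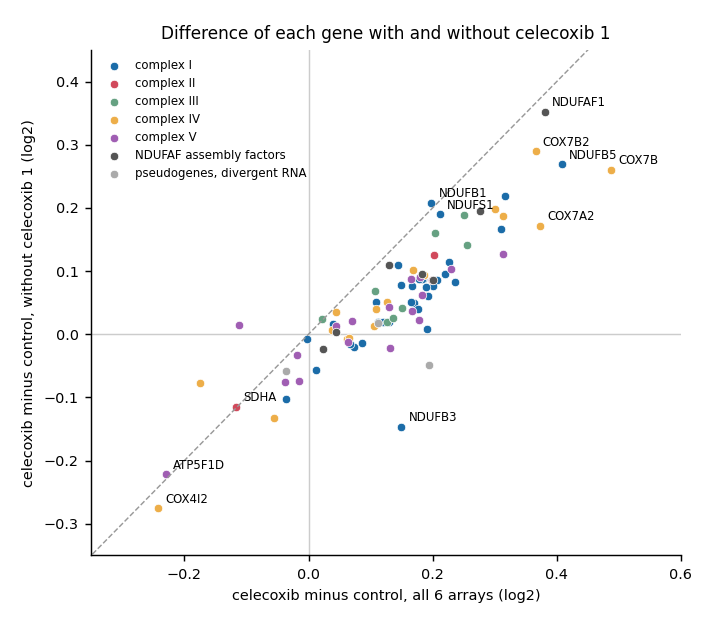
Difference between celecoxib and control (log2) for each member with all 6 arrays (horizontal axis) and without celecoxib replicate 1 (vertical axis), coloured by complex. The median moves from 0.15 to 0.05, and NDUFAF1, NDUFS1, NDUFB1, SDHA and COX4I2 keep differences of similar size.

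In 8 members 2 transcript clusters carried the symbol, and the brighter stood for the gene. Both clusters of NDUFB4 held identical values. The clusters of SDHD (0.20 and 0.20), NDUFV2 (0.18 and 0.18) and COX6A1 (0.13 and 0.13) gave matching differences, and those of ATP5MK (0.31 and 0.24) and NDUFAF2 (0.20 and 0.12) the same direction. NDUFS4 gave 0.22 in the brighter cluster and 0.04 in the other. The genome position of these clusters was not used here, so whether any of them reads a near-identical copy is not known.

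Genes that serve the same pathway were described from lists beside the members, and 0 genes of any list passed an adjusted p of 0.05 in limma. Of the other assembly factors for all complexes, 42 of 49 were measured and 37 were higher (median 0.11), with 7 at an unadjusted p under 0.05, all higher (6.87% of all genes). Without celecoxib 1, 32 were higher (median 0.06), with 1 at that p (5.01%). ATPAF2, which builds the ATP synthase head, read 8.06, 8.18 and 8.21 against 8.69, 8.40 and 8.45, without overlap (0.36 ± 0.09, and 0.27 without celecoxib 1). COX11, which delivers copper to cytochrome c oxidase, differed by 0.22 ± 0.08, or 0.16 without celecoxib 1.

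Electron carriers and enzymes of ubiquinone synthesis were higher in 14 of 18 genes (median 0.09), with 5 at an unadjusted p under 0.05, all higher (6.87% of all genes). Without celecoxib 1, 11 were higher (median 0.06), with 2 higher (5.01%) and 1 lower (4.54%) at that p. ETFDH, which passes electrons from fatty acid oxidation to ubiquinone, read 7.48, 7.41 and 7.25 against 8.07, 7.84 and 7.83. The groups stood well apart, by 0.53 ± 0.09 (limma adjusted p = 0.0987), or 0.46 without celecoxib 1. COQ9, a lipid-binding protein of ubiquinone synthesis, differed by 0.21 ± 0.07 (0.19 without celecoxib 1). CYCS, cytochrome c, named for its role, differed by 0.08 ± 0.12 (-0.02 without celecoxib 1).

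Regulators of mitochondrial biogenesis and transcription were split, with 11 of 20 higher (median 0.06) and 3 at an unadjusted p under 0.05, all higher (6.87% of all genes). Without celecoxib 1, 11 were again higher (median 0.02), with 3 at that p (5.01%). PPARGC1A read 7.43, 7.45 and 7.51 against 7.91, 7.92 and 7.73, and celecoxib 1 and 2 were level. It differed by 0.39 ± 0.08 (limma adjusted p = 0.145), or 0.36 without celecoxib 1. ESRRG, an estrogen-related receptor, read 7.37, 7.16 and 7.48 against 8.04, 7.77 and 7.85, also without overlap (0.55 ± 0.11, adjusted p = 0.129, and 0.47 without celecoxib 1). Also named for their roles, NRF1 differed by 0.06 ± 0.08 and GABPA by 0.06 ± 0.09. TFAM, which packages mitochondrial DNA and takes part in starting its transcription, differed by 0.28 ± 0.13. Without celecoxib 1, NRF1 differed by 0.02, GABPA by -0.03 and TFAM by 0.16. YY1 read 10.04, 10.23 and 9.99 against 9.84, 9.98 and 9.96, with every celecoxib array below every control. Its difference was -0.16 ± 0.09, or -0.11 without celecoxib 1. ESRRA, another estrogen-related receptor, differed by -0.0036 ± 0.08, or 0.05 without celecoxib 1.

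Further lists were compared with the members across arrays. Citric acid cycle and pyruvate dehydrogenase genes were higher in 13 of 15 measured of 17 (median 0.10, and 0.05 without celecoxib 1), with SUCLG1 at 0.43 ± 0.13 (0.28 without) and DLD at 0.30 ± 0.10 (0.24 without). Protein import and cristae genes were higher in 22 of 27 measured of 30 (0.10, and 0.01 without), with APOOL at 0.31 ± 0.08 (0.25 without) and CHCHD3 at 0.23 ± 0.07 (0.19 without). Mitochondrial ribosomal proteins were higher in 64 of 73 (0.10, and 0.01 without), with MRPL32 at 0.38 ± 0.12 (0.27 without) and MRPS18C at 0.29 ± 0.10 (0.19 without). Cytosolic ribosomal proteins were higher in 52 of 63 (0.05, and -0.01 without), with RPL10 at 0.28 ± 0.09 (0.28 without) and RPS27 at 0.14 ± 0.09 (0.07 without). Small nucleolar and Cajal body RNAs were higher in 156 of 192 (0.18, and 0.10 without), with SCARNA8 at 0.41 ± 0.08 (0.34 without). Unadjusted p-values under 0.05 were found in 4, 2, 6, 1 and 31 higher genes of these 5 lists in turn (6.87% of all genes), and in 0, 0, 0, 0 and 1 lower (4.44%). Without celecoxib 1 the counts were 2, 2, 2, 1 and 19 higher (5.01%) and 0, 0, 1, 0 and 1 lower (4.54%).

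**Figure D5:**
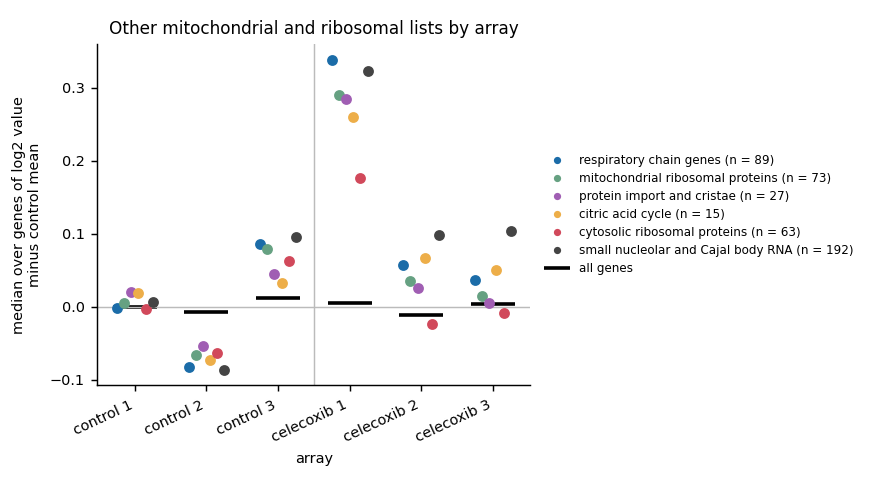
Median over genes of the log2 value minus the gene's control mean, for the respiratory chain members, 5 other lists and all genes (black bars), in each array; points of one array are offset sideways. All 6 lists are highest in celecoxib 1 (0.18 to 0.34) and lowest in control 2.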

How the data were processed

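RNA of 6 AGS samples was measured on Affymetrix HuGene-1_0-st arrays, using 250 ng of total RNA each. The deposited table holds log2 values that the authors made with RMA in Affymetrix Expression Console 1.1, per the submitters' processing notes; RMA corrects background, equalises the arrays' distributions and summarises probes, so a shift shared by most genes would not show. The settings of RMA were not given here, the files give no background level per cluster, and slide and scan date were not used here, so no batch was tested.

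Of 33297 transcript clusters, 19460 had 1 symbol in the platform annotation, 1754 had several and 12083 were unnamed here; 6 clusters with several symbols included a member and were not used. The cluster with the highest mean of the 6 arrays stood for each of 18417 genes, and 97 member clusters gave 89 genes. Groups came from the labels. Differences are celecoxib minus control on the log2 scale, with standard errors and 95% intervals from lmFit and eBayes (limma 3.58.1, R 4.3.3), two-sided, and Benjamini-Hochberg adjustment over all 18417 genes, called at 0.05. No filter on signal was applied. The number of arrays limits the precision. The procedure was tested on simulated data.

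The members and lists were chosen with earlier results of these data known. Named members are, in each complex, the 3 with the smallest p and the largest difference each way, the redox, core and isoform genes, and up to 2 genes per other list. Lists are described by counts and medians, with no test. Alternatives were averaging a gene's clusters, every cluster alone, 2 filters on dim genes (above the median of 6.785, or without the dimmest 20%), 3 further normalizations, 2 variance priors, array weights, the replicate block, the small RNA level as a covariate, subunits only, and leaving out each array. Promoter windows came from RefSeq (GRCh38.p14), and matplotlib 3.10.9 (Python 3.11.15) drew the figures.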

Additional observations from a re-analysis of the deposited data

How the results depend on the processing

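Of the 89 members, 0 were called under every alternative except array weights and genes above the median signal, where 1 (NDUFAF1) was. The count of called genes, 26, was 76 above the median signal, 59 without the dimmest 20%, 44 after a further quantile normalization, 42 with cyclic loess, 69 with an intensity trend, 69 with a robust prior added, 177 with array weights and 1 with the small RNA covariate. Leaving out 1 array gave 0 to 5 called genes, with 1293 to 2353 at an unadjusted p under 0.05. It gave 75 to 80 members higher without controls 1 to 3, celecoxib 2 or celecoxib 3, and 67 without celecoxib 1. Groups did not overlap in 20 members (22.5%, against 19.0% of all genes), and in 21 to 47 on leaving out 1 array, which raises the share over all genes too. They were 47 without control 3 (52.8%, all genes 32.6%), 34 without celecoxib 3 (38.2%, 30.4%) and 21 without celecoxib 1 (23.6%, 27.9%). The member median then lay between 0.05 (without celecoxib 1) and 0.20, and that of the NDUFAF factors between 0.10 and 0.28.

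With the small RNA level as a covariate, 19 members were higher and the member median was -0.065. That level separates the groups fully, so this fit cannot tell it apart from the treatment. The medians were -0.071 for complex I, -0.038 for complex II, -0.0045 for complex III, -0.016 for complex IV, -0.11 for complex V and -0.046 for the NDUFAF factors. Named members whose direction turned were COX7A2 (-0.016), UQCR11 (-0.016), ATP5F1A (-0.022), ATP5F1C (-0.030), SDHC (-0.030), SDHD (-0.038), NDUFAF5 (-0.046), COX6A1 (-0.060), COX7B (-0.063), ATP5MK (-0.076), COX5B (-0.078), UQCRC1 (-0.079), NDUFV2 (-0.11), COX8A (-0.13), ATP5F1B (-0.041), COX4I1 (-0.093), COX6A2 (-0.0049), COX6B1 (-0.12), NDUFS8 (-0.11) and COX7A1 (0.023). Directions of members near 0 also turned elsewhere, for ATP5F1B with array weights (-0.019), CYC1 with cyclic loess (-0.014), and NDUFV1 with centred arrays (0.0025) and array weights (0.0036). Leaving out 1 array gave ranges across 0 for COX4I1 (-0.0075 to 0.12), COX6A2 (-0.034 to 0.16), COX6B1 (-0.0053 to 0.14), COX6B2 (-0.13 to 0.025), COX8C (-0.025 to 0.11), CYC1 (-0.055 to 0.096), NDUFS7 (-0.10 to 0.0039), NDUFS8 (-0.020 to 0.13) and NDUFV1 (-0.039 to 0.042). The cause was not tested.

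With the replicate number as a replicate block, limma called 0 genes (2448 at an unadjusted p under 0.05) and 0 members. Deviations of same-numbered arrays correlated at -0.02, 0.49 and 0.01 across genes, and arrays did not all correlate best with their own number, so the numbers are not taken to pair the samples. Standard errors of single members were 0.06 to 0.24, which limits what 3 arrays per group can resolve.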
